A study of Mus musculus with 39 samples.

Results

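Solute carriers are the membrane proteins that move sugars, amino acids, bile acids, metals, nucleotides and other small molecules across cell and organelle membranes. The set described here holds every gene symbol of the deposited table that begins with Slc and a digit, with the transcript rows of a symbol summed. It comprises 172 of the 10061 symbols in the table, from 44 numbered Slc families and 234 of the 13568 transcript rows. Of the 172 symbols, 165 name transporters. The other 7 name something else, among them the scaffold proteins Slc9a3r1 and Slc9a3r2, the antisense transcript Slc36a1os and the read-through transcript Slc10a3-ubl4. They were kept because the rule takes symbols, and they are named as such below.

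The 39 libraries are single cells from the liver of adult Krt19CreERT/Rosa26CAG-EGFP mice, each sequenced on its own. These mice carry an inducible Cre recombinase driven by Krt19, a keratin gene of bile duct epithelium, and a reporter that turns cells green after recombination. GFP+ cells were sorted and picked singly, and the labels describe them as Krt19+ cells and their progeny. Whether each cell descends from a Krt19+ cell was not tested. The labels put all cells in 1 group and name no animal, age in weeks, induction scheme or untreated comparison. No comparison of conditions can therefore be made, cells are not replicates, and no p-value or standard error is given.

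In liver, hepatocytes take up bile acids, organic ions, fatty acids and amino acids from blood, largely through solute carriers of the basolateral membrane. Bile duct epithelium, or cholangiocytes, modifies bile by exchanging chloride and bicarbonate and by taking back bile acids and glucose. Carriers of the inner mitochondrial membrane, of the Golgi apparatus and of zinc serve most cell types.

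Levels are in CPM, a per-million unit recovered from the deposited log2 values. A symbol was called detected at 1 CPM and high at 100 CPM. In 37 cells the deposited values allowed the worth of 1 read to be recovered, and 1 CPM stood for a median of 12.0 reads (range 3.67 to 41.5). In cells 38 and 39 the depth is unknown. A cell held a median of 2985 detected genes (range 1866 to 5298). Identical values were found in 0 of 741 pairings of libraries. Without molecular identifiers, reads cannot be taken as independent molecules. The exact Clopper-Pearson 95% intervals given below for shares of cells cover the choice of cells only. They make no allowance for cells that may share an animal. Nor do they allow for members named because of their differences between these groups.

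To place the carriers, cells were grouped by Ward clustering on 102 cell type markers, none of them an Slc gene. Of 2 to 6 groups, 4 gave the highest silhouette (0.380), with 2 groups close behind (0.378). The hepatocyte-like group held 6 cells, numbers 1 to 4, 38 and 39, each with 26 to 34 of 34 hepatocyte markers at 100 CPM. The cholangiocyte-like group held 22 cells, each with 6 to 12 of 17 cholangiocyte markers and also 1 to 14 hepatocyte markers at that level. A group of 7 cells, numbers 5 to 8, 10, 35 and 37, had 3 to 10 of 10 mesothelial and 2 to 5 of 11 fibroblast markers, and is called here the mesothelial and fibroblast marker cells. The remaining 4 cells, numbers 29, 32, 33 and 36, had 3 to 5 of 5 general leukocyte markers and are called the blood cell marker cells. That group was mixed, with 0 to 8 of 9 granulocyte markers and, in 1 cell, all 10 macrophage markers. Krt19 was detected in 20 of the 39 cells, of which 15 were cholangiocyte-like and 5 were mesothelial and fibroblast marker cells. It was detected in none of the 6 hepatocyte-like or 4 blood cell marker cells. Krt19 is itself on the cholangiocyte and mesothelial marker lists, so the grouping partly fixes this split.

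For each group, the mean log2(CPM + 1) of a member was set against its mean over all other cells. The member is called higher or lower where the difference, group minus all other cells, was at least 2 on that log2 scale. This is a description of 39 cells and not a test. The same share over all 10061 symbols is printed beside the count of members called in each group. The added 1 CPM shrinks differences of members with low levels.

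Promoter sequences are shown first for members with large differences in hepatocyte-like cells, whose levels are described below. Of the 30 members higher in hepatocyte-like cells, 23 had a start in the RefSeq table (build GRCm38.p6). The 250 bases before the outermost start are given 5′ to 3′ for the 4 with the largest differences, with capitals marking a match on either strand to AGGTCA, the nuclear receptor hexamer, to GTTAAT, part of the HNF1 motif, or to TATAAA, the TATA box.
Slc25a47, chr12:108850879-108851128, plus strand: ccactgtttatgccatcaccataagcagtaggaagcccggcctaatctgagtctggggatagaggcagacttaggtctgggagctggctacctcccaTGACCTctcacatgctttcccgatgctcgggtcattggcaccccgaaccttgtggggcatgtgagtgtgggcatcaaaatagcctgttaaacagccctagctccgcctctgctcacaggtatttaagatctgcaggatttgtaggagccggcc
Slc10a1, chr12:80968706-80968955, minus strand: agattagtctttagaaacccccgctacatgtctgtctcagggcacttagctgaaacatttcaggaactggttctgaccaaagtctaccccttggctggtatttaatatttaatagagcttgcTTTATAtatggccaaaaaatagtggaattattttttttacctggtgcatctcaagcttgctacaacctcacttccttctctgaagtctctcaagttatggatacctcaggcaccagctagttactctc
Slc38a4, chr15:97055957-97056206, minus strand: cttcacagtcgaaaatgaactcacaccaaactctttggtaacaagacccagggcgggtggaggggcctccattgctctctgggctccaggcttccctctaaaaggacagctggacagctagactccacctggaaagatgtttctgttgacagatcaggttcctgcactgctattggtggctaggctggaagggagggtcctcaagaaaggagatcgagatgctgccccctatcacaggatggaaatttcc
Slc22a18, chr7:143473539-143473788, plus strand: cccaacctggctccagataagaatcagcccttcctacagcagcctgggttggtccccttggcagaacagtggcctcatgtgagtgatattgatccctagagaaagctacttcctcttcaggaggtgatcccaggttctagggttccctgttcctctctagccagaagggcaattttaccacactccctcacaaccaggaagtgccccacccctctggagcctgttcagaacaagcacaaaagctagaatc
Counting back from the base before the start, Slc25a47 held the reverse complement of AGGTCA at positions -153 to -148. Slc10a1 held the reverse complement of TATAAA at -128 to -123. The windows of Slc38a4 and Slc22a18 held none of these letters. AGGTCA occurred in 6 of the 23 windows of hepatocyte-led members, in 16 of the 131 members with a window (12.2%) and in 13.8% of all 27025 windows. GTTAAT and TATAAA were found in 1 of the 23 each, and in 6.54% and 13.0% of all windows. Such matches describe letters and not binding sites.

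Most members were seen in few cells. The median member was detected in 8 of 39 cells, beside 9 for all symbols, and members ranged from 2 to 38 cells. There were 48 members in 5 cells or fewer and 7 in at least 30, and 0 members were detected in all 39 cells, whereas 71 symbols of the table were. Detection in at least 20 cells was reached by 21 members (12.2%), beside 16.3% of all symbols. A level of 100 CPM in at least 10 cells was reached by 11 members (6.40%), beside 8.85% of all symbols. Of the other members, 34 never reached 100 CPM, 35 did so in 1 cell, 73 in 2 to 4 cells and 19 in 5 to 9 cells. Of all values of the members, 52.4% were listed at 0, beside 48.8% in the whole table, and a 0 cannot be told apart from a transcript missed during amplification.

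Each cell held a different selection of carriers. A cell had a median of 45 detected members (range 27 to 86) and 13 at 100 CPM (range 3 to 21). By group the median of detected members was 52 in hepatocyte-like cells (range 34 to 86), 43 in cholangiocyte-like cells (27 to 60), 44 in the mesothelial and fibroblast marker cells (40 to 62) and 49.5 in the blood cell marker cells (42 to 51). These ranges overlapped in every pair of groups. The members' share of all summed CPM was 0.882% at the median (range 0.220% to 2.05%), with group medians between 0.717% in hepatocyte-like and 1.17% in cholangiocyte-like cells. A single member often made up much of it, with the top member of a cell holding a median of 20.8% of the summed member CPM and at most 66.1%. In all, 24 different members were top in at least 1 cell. Slc25a5 led most often, in 5 cells, and Slc25a3 and Slc25a4 led in 3 each.

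**Figure D1:**
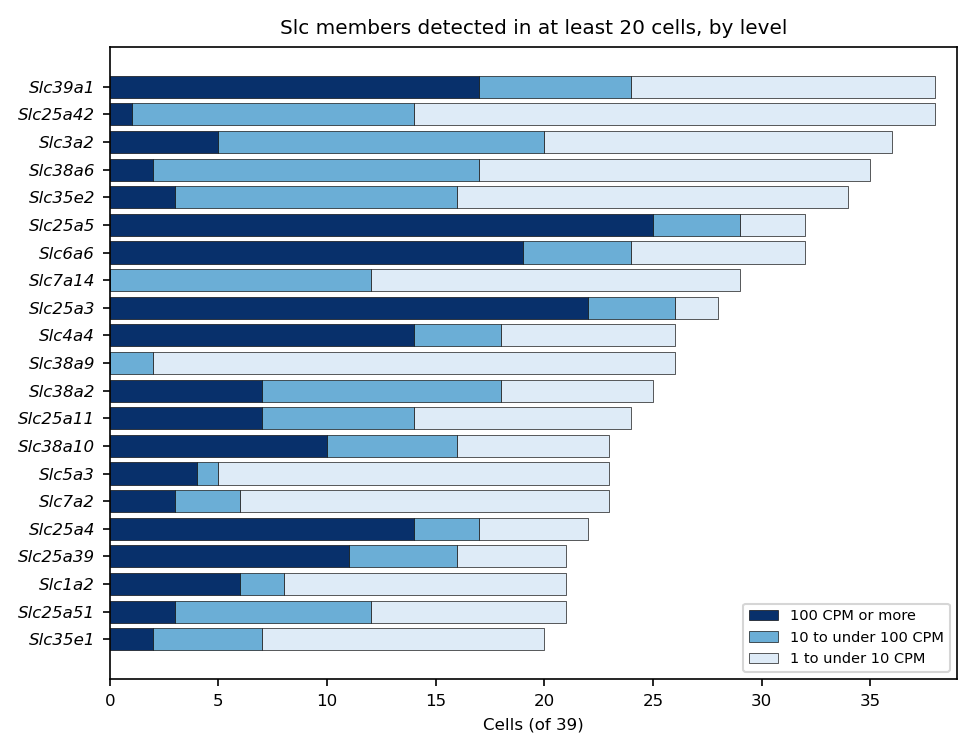
Members detected at 1 CPM in at least 20 of 39 cells. Each bar gives the number of cells and is divided by level, so Slc39a1 and Slc25a42 both reach 38 cells, with 17 cells at 100 CPM for Slc39a1 and 1 for Slc25a42.

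The members in the most cells came from several transport classes. Slc39a1, a plasma membrane zinc importer (ZIP1), was detected in 38 cells (86.5% to 99.9%), at a median of 27.3 CPM over all cells and at most 7150 CPM in cell 16. It reached 100 CPM in 17 cells. Slc25a42, a mitochondrial carrier of coenzyme A, was also detected in 38 cells but reached 100 CPM in 1 of them, with 4599 CPM in cell 15 and 36.3 CPM in the next cell. Slc3a2, the heavy chain that partners several amino acid transporters, was detected in 36 cells at a median of 12.2 CPM. Slc38a6, an amino acid transporter family member, was found in 35 cells and Slc35e2, of the nucleotide sugar transporter family, in 34. Some broad members stayed low. Slc7a14, detected in 29 cells, and Slc38a9, an amino acid sensor of the lysosome detected in 26, reached 100 CPM in none.

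Of the 11 members at 100 CPM in at least 10 cells, 4 were mitochondrial carriers, 2 were zinc transporters and 2 belonged to family 6. Slc25a5, an adenine nucleotide translocator (ANT2) that exchanges ADP and ATP, was present in 32 cells, 25 of them at 100 CPM or more, with a median of 233 CPM over all cells. Slc25a3, the phosphate carrier that supplies ATP synthase, was present in 28 cells, 22 of them at 100 CPM or more, with a median of 127 CPM. Per kilobase of transcript, the median over cells was 188 CPM per kb for Slc25a5 and 78.8 CPM per kb for Slc25a3, and Slc25a5 was the higher of both in 26 of 39 cells. Slc6a6, the taurine transporter, and Slc39a1 followed with medians of 13.1 and 11.5 CPM per kb. As a class, the 24 mitochondrial carriers had at least 1 member at 100 CPM in 37 of 39 cells. The 16 zinc transporters did so in 33 cells, the 23 members of amino acid transporter families in 29 and the 18 members of the nucleotide sugar family in 27. The 3 oligopeptide transporters did so in none.

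Slc25a4 and Slc25a5 encode sister translocators of the same reaction, and they were not distributed alike. Slc25a4 (ANT1) was detected in 22 cells and Slc25a5 in 32, with both in 18, Slc25a4 alone in 4, Slc25a5 alone in 14 and neither in 3. In hepatocyte-like cells Slc25a4 was listed at 0 in 5 and at 0.636 CPM in cell 2, so it was detected in 0 of 6 cells, which allows a share of up to 45.9%. Among all other cells it was detected in 22 of 33 (48.2% to 82.0%), 14 of them at 100 CPM. Slc25a5 was detected in all 6 hepatocyte-like cells, at 483, 1189, 708, 233, 103 and 29.5 CPM in cells 1 to 4, 38 and 39. Hence the low Slc25a4 values of these cells stood beside detected Slc25a5 in each of them. Per kilobase, Slc25a4 exceeded Slc25a5 in 11 cells, of which 8 were cholangiocyte-like and 3 were mesothelial and fibroblast marker cells.

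**Figure D2:**
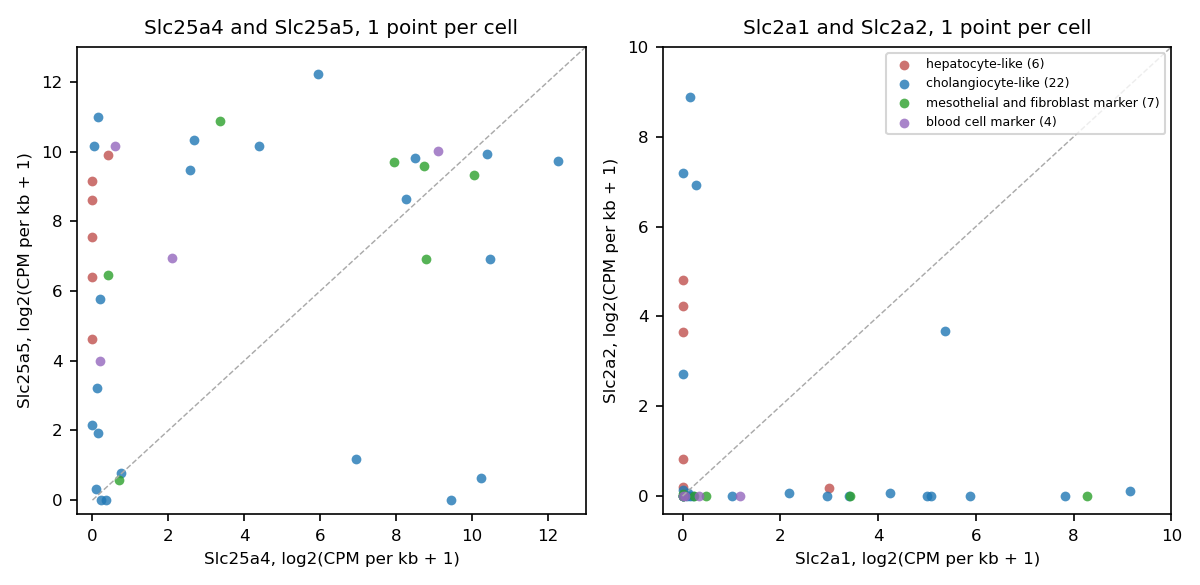
Levels of related carriers in single cells, as log2(CPM per kb + 1), 1 point per cell coloured by cell group, with the diagonal marking equal levels. All 6 hepatocyte-like cells lie at or near 0 for Slc25a4 and above 0 for Slc25a5, and 1 cell has both Slc2a1 and Slc2a2 at 1 CPM.

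Hepatocyte-like cells had the largest number of members set apart. There, 30 members were higher (17.4%), beside 11.7% of all symbols, and 16 were lower (9.30%), beside 7.54% of all symbols. With 10 CPM added before the logarithm in place of 1, 9 members were higher (5.23%), beside 4.68% of all symbols. The median difference was -0.34 over members and -0.37 over all symbols. In 5 members, among them Slc27a5, Slc38a3 and Slc25a47, every hepatocyte-like cell stood above every other cell (2.91%), beside 1.76% of all symbols. Of the 13 measured members of a list of hepatocyte uptake and metabolite carriers, 12 were higher, 0 were lower and the median difference was 4.66. A hepatocyte-like cell held a median of 4.5 of the 13 at 100 CPM (range 2 to 6), and the median was 0 in each other group. That list was drawn up from known liver roles with earlier results of these cells in view, so its count is no independent support.

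Fatty acid and bile acid handling led. Slc27a5, which joins bile acids and long fatty acids to coenzyme A in liver, had 352, 1292, 448, 372, 135 and 328 CPM in hepatocyte-like cells 1 to 4, 38 and 39, and at most 0.0807 CPM in any other cell. All 6 hepatocyte-like cells were thus above 100 CPM (54.1% to 100%), against 0 of 33 other cells (up to 10.6%), a difference of 8.60 in mean log2(CPM + 1). Slc27a2, a very long chain acyl-CoA synthetase of the same family, had 353, 0.424, 203, 16.9, 81.4 and 4.09 CPM in the same order of cells, and at most 37.5 CPM in other cells. It was detected in 7 cells and Slc27a5 in 6, with 5 cells holding both. Slc10a1 (NTCP), the sodium-coupled bile acid importer of hepatocytes, had 69.0, 592, 27.6, 1.16, 247 and 249 CPM in hepatocyte-like cells. Outside them it was detected in 7 of 33 cells at up to 10.2 CPM. The overlap came at hepatocyte-like cell 4, whose depth was the lowest of the 37 known, at 3.67 reads per CPM; the part of depth in this value was not tested.

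Organic ion carriers differed widely from one hepatocyte-like cell to another. Slc22a30, a rodent organic anion transporter family member, was detected in 4 hepatocyte-like cells at up to 125 CPM, stood at 0.545 CPM in hepatocyte-like cell 4 and was listed at 0 in all 33 other cells. Slc22a18, a member of the same numbered family encoded in an imprinted region, had 18.0, 70.4, 202, 0.273, 97.8 and 184 CPM in hepatocyte-like cells. Cholangiocyte-like cell 22, which had 5 of 34 hepatocyte markers at 100 CPM, exceeded them with 1447 CPM of Slc22a18. Slc47a1 (MATE1), an exporter of organic cations, was higher by 3.01 and reached 71.6 CPM in cell 38. Among the 9 members of the bile acid and organic ion class, 5 were higher in hepatocyte-like cells, beside 11.7% of all symbols. A class member reached 100 CPM in 5 of 6 hepatocyte-like cells, against 9 of 33 other cells.

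Among amino acid carriers, Slc38a3 stood at 90.1 CPM or more in all 6 hepatocyte-like cells, and the others named here did not. Slc38a3 (SNAT3), which carries glutamine with sodium, had 284, 263, 424, 366, 448 and 90.1 CPM in hepatocyte-like cells. It was detected in 2 other cells at up to 21.0 CPM, so the groups did not overlap. Slc38a4 (SNAT4), a neutral amino acid transporter, had 87.6, 616, 324, 0.818, 81.5 and 33.1 CPM in hepatocyte-like cells and overlapped with 3 other cells above 100 CPM, the highest of them cholangiocyte-like cell 26 at 3130 CPM. Slc6a13 (GAT2), a carrier of GABA and related molecules, was higher by 3.96, with 0.106 to 217 CPM in hepatocyte-like cells. Slc7a2, a carrier of cationic amino acids, was higher by 2.57, with 0.218 to 229 CPM in hepatocyte-like cells. It was also detected in 18 of 33 other cells, at most 3445 CPM.

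Mitochondrial carriers and sugar carriers completed the hepatocyte-led set. Of the 24 mitochondrial carriers, 7 were higher and 1, Slc25a4, was lower, beside 11.7% and 7.54% of all symbols. Slc25a47, a carrier known from liver, had 23.8, 1179, 459, 21.5, 328 and 199 CPM in hepatocyte-like cells and was detected in no other cell. Slc25a13 (citrin), the aspartate and glutamate carrier that serves the urea cycle, had 91.0, 1034, 1.21, 0.546, 43.6 and 29.1 CPM in hepatocyte-like cells, and at most 319 CPM in other cells. The citrate carrier Slc25a1 was higher by 2.97 and the ornithine carrier Slc25a15 by 2.46. Slc2a2 (GLUT2), the glucose transporter of hepatocytes, was higher by 2.67 with 64.1, 4.24, 0.728, 0.818, 99.6 and 152 CPM, but its highest value was 2612 CPM in cholangiocyte-like cell 22. Slc37a4, which moves glucose 6-phosphate into the endoplasmic reticulum, was higher by 3.27 and reached 199 CPM in hepatocyte-like cell 1, but stood at 1422 and 615 CPM in cholangiocyte-like cells 9 and 26. Slc39a14 (ZIP14), an importer of zinc and iron, was higher by 3.08 and was detected in 5 of 6 hepatocyte-like cells, at most 132 CPM, and 8 of 33 other cells, at most 660 CPM in cholangiocyte-like cell 21.

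**Figure D3:**
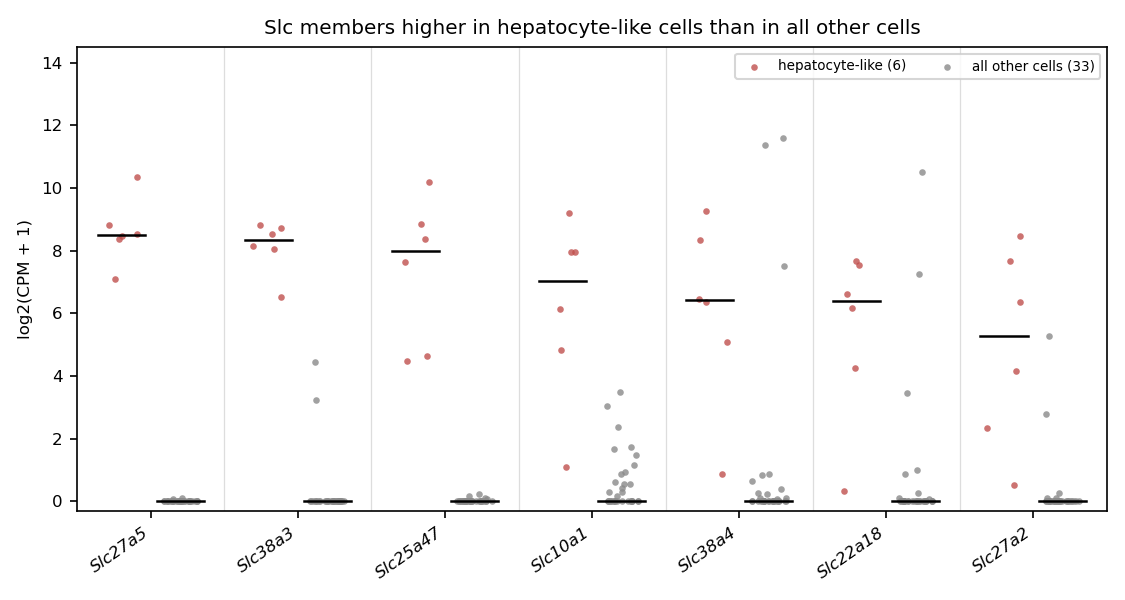
Members with large positive differences in hepatocyte-like cells, as log2(CPM + 1), with 1 point per cell and a line at the median. Hepatocyte-like cells stand left of all other cells for each member, and for Slc27a5, Slc38a3 and Slc25a47 the 2 sets of points do not overlap.

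The 16 members lower in hepatocyte-like cells included taurine, creatine and zinc carriers. Slc6a6 had 12.8, 4.63, 0, 1.43, 2.17 and 0 CPM in hepatocyte-like cells, against a median of 166 CPM in all other cells, where 19 of 33 reached 100 CPM. Slc39a1 had 5.02, 2.85, 14.2, 1.33, 5.63 and 1.41 CPM in hepatocyte-like cells, against a median of 115 CPM and 17 of 33 cells at 100 CPM. The creatine transporter Slc6a8 was at or near 0 in all 6 hepatocyte-like cells and was detected in 17 of 33 others. Slc50a1, Slc44a2, Slc39a8 and Slc39a10 were listed at 0 in all 6. Slc3a2 was lower by 2.40 on the log2 scale in hepatocyte-like cells and Slc2a1 by 2.05.

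In cholangiocyte-like cells 4 members were higher (2.33%), beside 2.8% of all symbols, and 14 were lower (8.14%), beside 8.5% of all symbols. Both shares were near those of all symbols. With 0.1 CPM added in place of 1, 17 members were higher (9.88%), beside 6.21% of all symbols. The median difference was -0.17 over members and -0.27 over all symbols. In 0 members did all 22 cells stand above every other cell, beside 0.0% of all symbols. The 4 were carriers of neutral amino acids, zinc, choline-like molecules and bicarbonate.

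Slc43a2 (LAT4), an exporter of branched-chain and other neutral amino acids, had the largest difference at 3.58. Its values in cholangiocyte-like cells ran from 0 to 5661 CPM with a median of 13.3 CPM, and it was detected in 16 of 22 (49.8% to 89.3%). In all other cells it was detected in 3 of 17 (3.80% to 43.4%), with a highest value of 220 CPM. Slc39a4 (ZIP4), a zinc importer best known from intestine, behaved in an on or off manner in cholangiocyte-like cells. It was detected in 9 of 22, and all 9 were above 100 CPM (20.7% to 63.6%), up to 2339 CPM in cell 34. Among all other cells 1 of 17 reached 100 CPM (0.149% to 28.7%), namely hepatocyte-like cell 4 at 283 CPM. It was also detected in hepatocyte-like cells 3 and 38, at 13.6 and 7.41 CPM. Mesothelial and fibroblast marker cell 6 had 26.8 CPM. The median per kilobase was 1.36 CPM per kb in hepatocyte-like and 0.0569 CPM per kb in cholangiocyte-like cells. Detection of Slc39a4 thus did not tell cholangiocyte-like from hepatocyte-like cells.

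Slc4a4 (NBCe1), the electrogenic sodium bicarbonate cotransporter, had a median of 77.9 CPM in cholangiocyte-like cells, a range of 0 to 4915 CPM and 10 of 22 cells at 100 CPM (24.4% to 67.8%). All other cells gave 4 of 17 at 100 CPM (6.81% to 49.9%), and these 4 were mesothelial and fibroblast marker cells. Those 7 cells had 408, 5.67, 162, 8.57, 117, 1.14 and 549 CPM, so Slc4a4 did not tell the 22 cells from these 7. The difference of 2.07 stood at 1.90 when each cell was rescaled to a sum of 1000000 CPM and at 1.99 without cell 33. Slc4a4 was low in the remaining groups, with 3 of 6 hepatocyte-like cells detected at up to 54.5 CPM and 1 of 4 blood cell marker cells at 2.09 CPM. Slc44a3, a choline transporter-like protein, was detected in 9 of 22 cholangiocyte-like cells at up to 550 CPM and in 2 of 17 other cells. These 2 were mesothelial and fibroblast marker cells 35 and 37, at 1.49 and 482 CPM.

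Of 13 listed carriers of duct secretion and reabsorption, 7 were measured and detected in a median of 9 cells, the same as for all symbols. Of these 7, 1 (Slc4a4) was higher and 0 were lower in cholangiocyte-like cells, beside 2.8% and 8.5% of all symbols. The median difference was 0.71. Slc26a3, a chloride and bicarbonate exchanger, was detected in 9 cells, all of them cholangiocyte-like (20.7% to 63.6% of 22), against 0 of 17 other cells (up to 19.5%). It had 834, 236 and 2364 CPM in cells 11, 12 and 13. In cells 9, 18, 23, 26, 27 and 28 it stood at only 1.05 to 3.15 CPM. Blood cell marker cell 33, at 0.959 CPM, fell just short of detection, so the split rests largely on values near the threshold. Slc4a2 (AE2), the anion exchanger of bile secretion, was detected in 9 cells, 5 of them cholangiocyte-like, and only cholangiocyte-like cells, 3 in number, reached 100 CPM. Slc10a2 (ASBT), the bile acid importer of the duct's apical side, was detected in 6 cells, 4 of them cholangiocyte-like, at most 107 CPM in cell 12. Slc5a1 (SGLT1), a sodium glucose cotransporter, was detected in 4 cells, all cholangiocyte-like. It had 340 CPM in cell 14, which was 95.9% of its sum, and only 2.65 to 8.69 CPM in cells 15, 17 and 28. Slc12a2 (NKCC1), which loads chloride into secreting cells, was detected in 7 cells, 5 of them cholangiocyte-like, and reached 1694 CPM in cell 24. Slc10a1 and Slc10a2, importers of bile acids at opposite ends of their circuit through the liver, occurred together in 2 cells.

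The glucose transporters Slc2a1 and Slc2a2 were seldom detected in the same cell. Slc2a1 (GLUT1) was detected in 16 cells and Slc2a2 in 9, and 1 cell had both. Slc2a1 alone was found in 15 cells, Slc2a2 alone in 8 and neither in 15. At 100 CPM, 7 cells had Slc2a1, 4 had Slc2a2 and 0 had both. Counts this small leave little room for overlap. Whether the 2 shared fewer cells than such counts would give was not tested. Of the 16 cells with Slc2a1, 11 were cholangiocyte-like and 6 of these reached 100 CPM, with 1868 CPM in cell 19. Among the cells with Slc2a2, 4 were hepatocyte-like and 5 were cholangiocyte-like, so the presence of Slc2a2 was not confined to hepatocyte-like cells. Of 12 listed glucose carriers 5 were measured, with 2 higher and 1 lower in hepatocyte-like cells and 0 and 0 in cholangiocyte-like cells. The counts were 0 and 1 in the mesothelial and fibroblast marker cells, and 0 and 0 in the blood cell marker cells. Over all symbols the shares were 11.7% and 7.54%, 2.8% and 8.5%, 11.4% and 2.54%, and 16.6% and 5.27% in that order. With 5 genes, the counts are too small to set against these shares.

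Of the 14 members lower in cholangiocyte-like cells, 12 were called higher in another group, a count that the shared cells of these comparisons partly fix. Slc35b2, the Golgi importer of the sulfate donor PAPS, was lower by 3.21 on the log2 scale and detected in 3 of 22 cholangiocyte-like and 10 of 17 other cells. Slc35b1, an ATP and ADP exchanger of the endoplasmic reticulum, was detected in 1 of 22 cholangiocyte-like and 8 of 17 other cells. Slc25a5 and Slc25a3 were lower too, with medians of 107 and 30.6 CPM in cholangiocyte-like cells, against 483 and 211 CPM in all other cells. The ranges of both overlapped widely, from 0 to 5955 CPM for Slc25a5 in cholangiocyte-like cells and up to 2314 CPM in the others. Without cells 38 and 39, 9 members were lower in place of 14 (5.23%), beside 8.24% of all symbols.

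**Figure D4:**
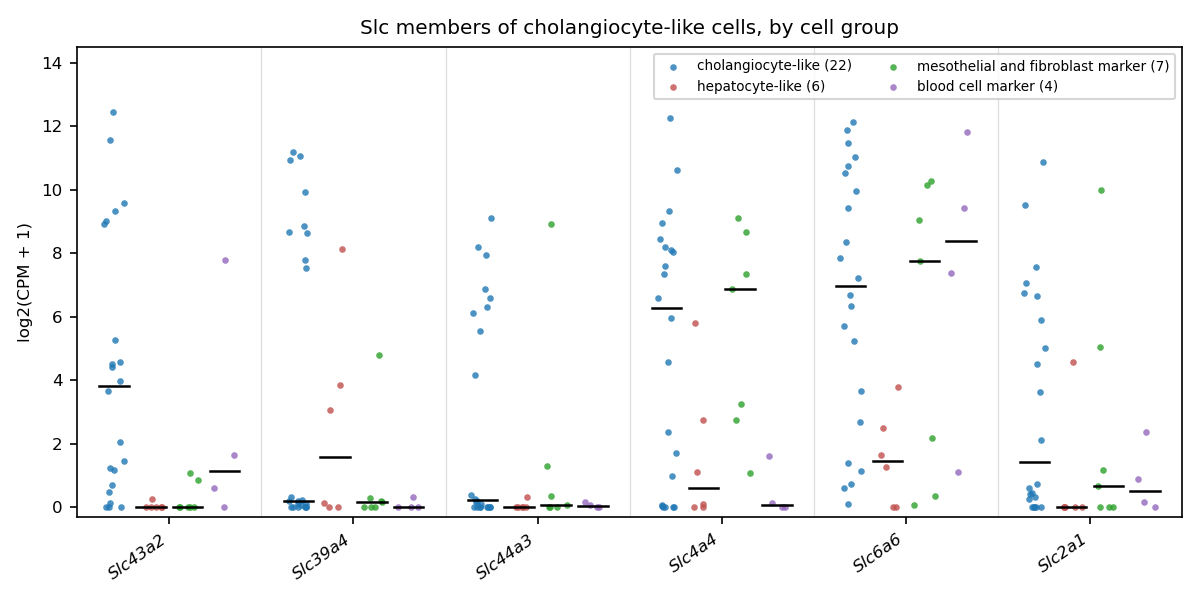
Members of cholangiocyte-like cells in the 4 cell groups, as log2(CPM + 1), with 1 point per cell and a line at the median. Slc39a4 is either above 100 CPM or below 1 CPM in all 22 cholangiocyte-like cells, while Slc4a4 and Slc6a6 reach similar levels in other groups.

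The mesothelial and fibroblast marker cells had 19 members higher (11.0%), beside 11.4% of all symbols, and 4 lower (2.33%), beside 2.54% of all symbols. In 0 members did all 7 cells stand above every other cell, beside 0.0895% of all symbols. Median differences were -0.06 over members and 0.06 over all symbols. The largest difference, 5.11, belonged to Slc9a3r1 (NHERF1), a scaffold protein that anchors membrane proteins and is itself no transporter, with 1748, 98.6, 2079, 171, 361, 1.04 and 685 CPM in cells 5 to 8, 10, 35 and 37, against at most 1398 CPM in other cells. Among the named members higher in this group, zinc importers ranked 2 (Slc39a8), 6 (Slc39a1) and 7 (Slc39a10) by difference. Carriers of sugars, nucleobases and lactate, described below, ranked between Slc39a8 and Slc39a1. Slc39a8 (ZIP8) had 1287, 477, 57.7, 785, 18.2, 1.04 and 0.322 CPM in these 7 cells, and at most 104 CPM in others. Slc39a1 had 115, 866, 678, 952, 18.1, 646 and 1142 CPM, against a median of 13.2 CPM in all other cells. Slc39a10 was higher by 2.96. Thus 3 of the 16 zinc transporters were higher in these cells, beside 11.4% of all symbols.

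Other members higher in these 7 cells carried sugars, lactate, nucleobases and adenine nucleotides. Slc50a1 (SWEET1), a sugar transporter of the Golgi, had 109, 16.4, 88.3, 25.5, 127, 0.149 and 573 CPM, against at most 2570 CPM in other cells. Slc16a1 (MCT1), which moves lactate with a proton, had 1710, 1.37, 134, 21.6, 78.5, 0.149 and 0 CPM. It was detected in 5 of these 7 cells (29.0% to 96.3%), against 2 of 32 other cells (0.766% to 20.8%). Its partner Bsg (basigin), which is no Slc member, was detected in all 39 cells and so accompanied Slc16a1 in each of its 7 cells. Slc43a3, a purine nucleobase transporter, exceeded 100 CPM in 3 of the 7 cells, at 662, 649 and 368 CPM, and in no other cell. Slc25a4 was also higher here, at 857, 17.8, 0.642, 471, 826, 1.19 and 2061 CPM, against at most 9589 CPM in other cells. Lower members were Slc43a2, the iron exporter Slc40a1, Slc39a4 and Slc2a2. None of these 7 cells reached 2 CPM of Slc43a2.

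The blood cell marker cells, only 4 and mixed, had 20 members higher (11.6%), beside 16.6% of all symbols, and 5 lower (2.91%), beside 5.27% of all symbols. In 0 members did all 4 cells stand above every other cell, beside 0.119% of all symbols. Median differences were -0.41 over members and -0.08 over all symbols. Slc35b2 had 407, 57.2, 650 and 98.2 CPM in cells 29, 32, 33 and 36, and was detected in 9 of 35 other cells, at most 1193 CPM. It belongs to the nucleotide sugar family, of whose 18 members 6 were higher in this group, beside 16.6% of all symbols. Slc28a2 (CNT2), a sodium nucleoside cotransporter, had 71.4, 35.1, 0.0656 and 78.0 CPM, against at most 1.52 CPM in other cells. It was detected in the 3 cells with granulocyte markers and not in cell 33, which had the macrophage markers. Slc38a1 (SNAT1), a glutamine transporter, followed with 61.8, 23.1, 0.440 and 231 CPM, but its highest value was 1067 CPM in cell 8 of another group. Slc25a37 (mitoferrin 1), an iron importer of mitochondria known from red cell precursors, had 9.09, 308, 7.16 and 285 CPM in the same cells. Its highest values lay outside the group, at 3754, 2043 and 1223 CPM in cholangiocyte-like cells 14, 25 and 20.

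Cell 33 carried several of the group's highest values alone. Slc40a1 (ferroportin), by which macrophages release iron, had 6029 CPM in cell 33, 172 CPM in cell 32 and was listed at 0 in cells 29 and 36. Outside the group it was detected in 9 of 35 cells, 8 of them cholangiocyte-like, with 4500 CPM at most. Slc29a1 (ENT1), a nucleoside transporter, had 2855 CPM in cell 33 and 17.2 CPM in cell 36. Outside the group it had 1829 and 1495 CPM in cholangiocyte-like cells 22 and 25, and 954 CPM in hepatocyte-like cell 2. Slc7a8 (LAT2), a light chain that pairs with Slc3a2, had 401 CPM in cell 33 and 80.7 CPM in cell 36. With cell 33 left out, 22 members were higher in the remaining 3 cells (12.8%), beside 19.7% of all symbols. Slc4a4 and Slc39a4 were lower in the group, with no cell of the 4 detecting Slc39a4.

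**Figure D5:**
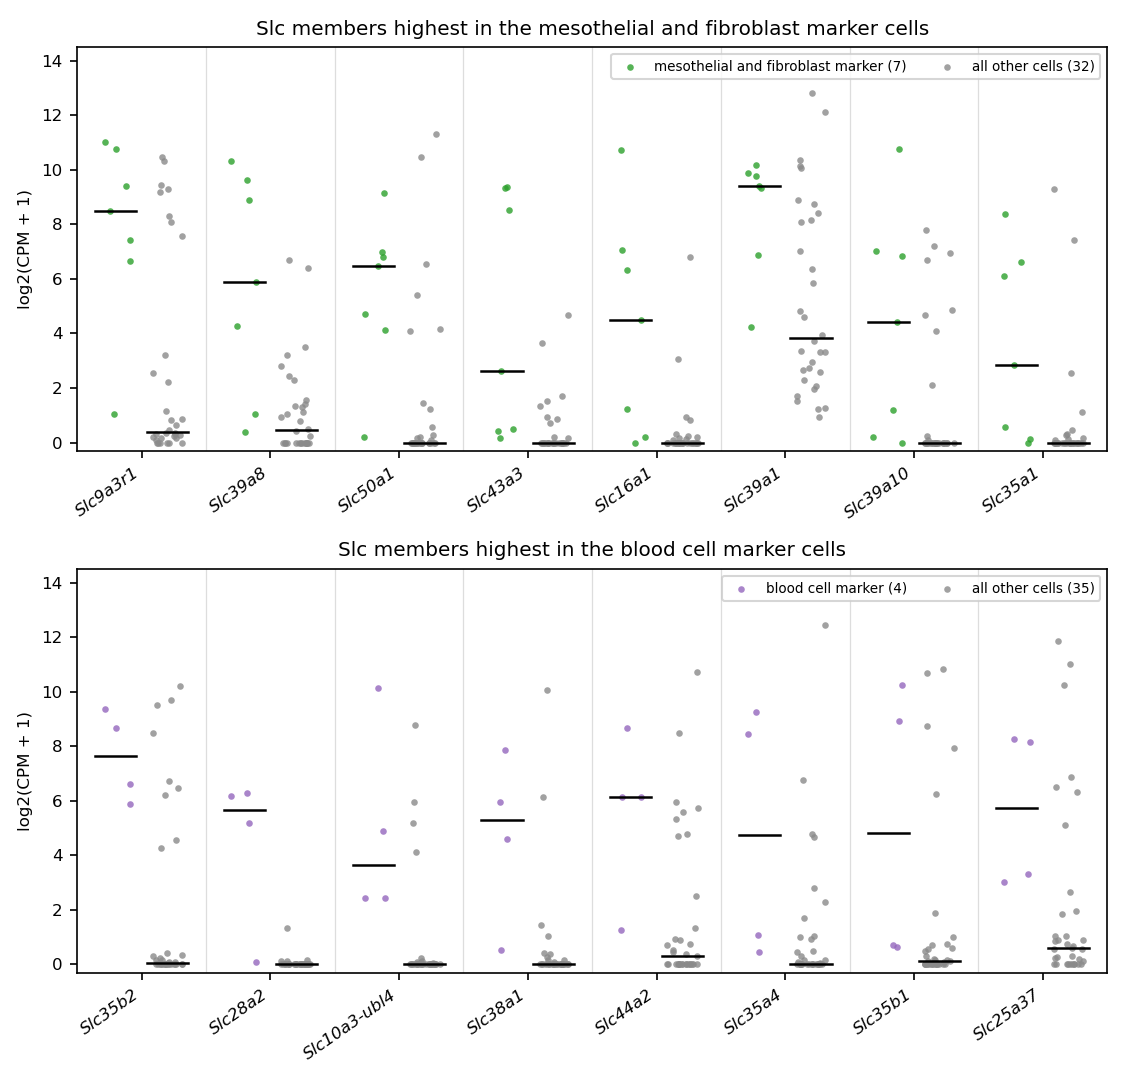
The 8 members with the largest positive difference in the mesothelial and fibroblast marker cells (upper panel) and in the blood cell marker cells (lower panel), as log2(CPM + 1), with 1 point per cell and a line at the median. Slc9a3r1 and Slc10a3-ubl4 are not transporters, and for every member shown the points of the group overlap with those of other cells.

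Several amino acid exchangers pair a light chain with Slc3a2, and the light chains were found in fewer cells than their partner. Slc7a5 (LAT1) was detected in 5 cells and Slc7a8 in 7, all of them with Slc3a2. Slc7a11 (xCT), the cystine and glutamate exchanger, was detected in 8 cells, 7 of them with Slc3a2. As Slc3a2 was detected in 36 of 39 cells, this overlap leaves little room to differ. Slc3a2 itself was higher in the mesothelial and fibroblast marker cells, with 197, 27.7, 1497, 3.56, 372, 12.2 and 31.2 CPM. The glutamine transporters Slc38a1 and Slc38a2 were detected in 7 and 25 cells, with 6 cells holding both. Zinc importers Slc39a8 and Slc39a14 were detected in 19 and 13 cells, with 4 holding both. Of the 11 measured carriers of glutamine, cystine and large neutral amino acids, 1 was higher and 2 lower in hepatocyte-like cells, 1 and 0 in cholangiocyte-like cells, 2 and 1 in the mesothelial and fibroblast marker cells, and 4 and 0 in the blood cell marker cells. The 9 measured carriers of iron, copper, zinc and manganese gave 2 higher and 2 lower, 1 and 0, 1 and 2, and 1 and 1 in the same order of groups. For the 10 measured mitochondrial carriers of ATP, phosphate and related metabolites, the counts were 3 and 1, 0 and 2, 1 and 0, and 1 and 0. Over all symbols the shares were 11.7% and 7.54%, 2.8% and 8.5%, 11.4% and 2.54%, and 16.6% and 5.27% in that order. On lists of 9 to 11 members, counts of 1 or 2 are too small to set against these shares.

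Many members owed their summed level to 1 cell. In 94 of 172 members (54.7%) the top cell held over 50% of the CPM summed over cells, beside 4726 of all 10061 symbols. The highest value of any member was 13167 CPM of Slc25a39, an importer of glutathione into mitochondria, in cell 24, with 1202 CPM in the next cell. Slc25a4 had 9589 CPM in the same cell. Slc6a8 reached 11863 CPM in cell 15, with 1885 CPM next, and Slc25a46, a protein of the outer mitochondrial membrane, 6380 CPM in that cell, with 108 CPM next. Summed over all symbols, cell 24 had 3128330 CPM and cell 15 had 1625440 CPM, both above the median of 1044240 CPM over cells. Rescaled to 1000000 CPM per cell, Slc25a39 in cell 24 had 4209 CPM and Slc6a8 in cell 15 had 7298 CPM. Slc52a3, a riboflavin transporter, had 4273 CPM in cell 24 and 68.7 CPM in the next, and Slc35d2, a nucleotide sugar transporter, 2699 CPM in cell 19 and 26.5 CPM in the next. Slc39a1 in cell 16, at 7150 CPM, made up 33.0% of its own sum, so its level was spread more widely.

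Transporters of the liver that lie outside the Slc symbols were set beside the members. Of 26 listed, 19 were measured, and 5 were higher and 1 was lower in hepatocyte-like cells, beside 11.7% and 7.54% of all symbols. Slco1b2, an organic anion importer of hepatocytes, was detected in all 6 hepatocyte-like cells at 33.4 to 261 CPM and in 1 other cell at 446 CPM. That cell, cholangiocyte-like number 31, had 14 of 34 hepatocyte markers at 100 CPM, the most outside the hepatocyte-like group. Abcb11, the bile salt export pump, was detected in 4 hepatocyte-like cells, at most 269 CPM, and in no other cell. Slc10a1, Slco1b2 and Abcb11, which together take bile acids from blood to bile, were each at their highest median in hepatocyte-like cells.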

How the data were processed

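The authors deposited log2 values per RefSeq transcript for 39 single cells. Bowtie 0.12.9, eXpress 1.5.1, edgeR and the build mm9 are named in the submitters' processing notes, with no order or settings. Every cell shared the lowest value, -2.58, which is 0.167 on the linear scale. It was subtracted after raising 2 to each value, and the unit, inferred from the values, is called CPM. The scale per cell was kept as deposited, although summed CPM ran from 351255 to 3128330. Rows were summed per symbol in Python 3.11.15 (pandas 2.3.3, scipy 1.17.1, scikit-learn 1.9.0). How reads were split between transcripts and near-identical copies, and whether strand was used, is not given in the sources used here. Slc36a1 and its antisense Slc36a1os have separate values, but any reads from bases they share cannot be assigned with certainty.

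The design had foreseen a linear unit, and its rules were applied to the back-transformed values. The study design holds 1 group with no animal named, so no test was run. Groups of cells came from Ward linkage on centred log2(CPM + 1) of 102 of 140 listed markers. Depth was read from the step between low values, within 2% of 1 read. No doublet caller was run and no cell was removed. Transcript lengths from GENCODE vM21 matched 171 of 172 members and were used for levels per kilobase.

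Members and gene lists were chosen with earlier results of these data known. Named members were the 10 in the most cells, in each group the 8 largest positive and 4 largest negative differences among members detected in at least 50% of the higher side's cells, the 5 highest values, the 10 most variable, the transport lists and the leading member of each class. A member that the rule names is not reported here. Other members, and the promoter motifs, were chosen with their values in view.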

Additional observations from a re-analysis of the deposited data

How the results depend on the processing

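Counts of members depended mostly on the threshold and on the constant added before the logarithm. Shares of members called are set beside those of all symbols. With any value above 0, 10 CPM and 100 CPM as the detection threshold, the median of members per cell was 80, 27 and 13, and 70, 5 and 2 members were detected in at least 20 cells. With 0.1 CPM added in place of 1, hepatocyte-like cells had 40 members higher (23.3%, beside 2066 of 10061 symbols) and 34 lower (19.8%, beside 19.1%), and cholangiocyte-like cells 17 higher (9.88%, beside 6.21%) and 26 lower (15.1%, beside 19.0%). The mesothelial and fibroblast marker cells had 30 higher (17.4%, beside 19.2%) and the blood cell marker cells 33 (19.2%, beside 25.2%). Adding 10 CPM gave 9 higher (5.23%, beside 4.68%) and 5 lower (2.91%, beside 2.18%) in hepatocyte-like cells, so the excess of higher members there was small at this setting. It gave 1 higher (0.581%, beside 1.01%) and 0 lower (0.0%, beside 1.67%) in cholangiocyte-like cells, and 7 (4.07%, beside 4.0%) and 9 higher (5.23%, beside 6.68%) in the mesothelial and fibroblast marker and the blood cell marker cells. A required difference of 3 gave 18 higher (10.5%, beside 6.66%) and 5 lower (2.91%, beside 2.59%), 1 (0.581%, beside 1.06%) and 3 (1.74%, beside 2.46%), 8 higher (4.65%, beside 4.98%) and 12 higher (6.98%, beside 8.64%) in the same order. Groups from the 1000 most variable genes were clusters of 6 and 33 cells, so the 2 smaller groups had no value, and the cluster of 33 had 16 members higher (9.3%, beside 7.54%) and 30 lower (17.4%, beside 11.7%). Without cells 38 and 39, 9 members were lower in cholangiocyte-like cells (5.23%, beside 8.24%). Rescaling each cell to 1000000 CPM shifted all differences of hepatocyte-like cells by a median of 0.19. Omitting cell 33, or rescaling with Rn45s, Lars2 and Rorb excluded, was chosen after seeing the data. Of 76 alternative values of these counts and shares, 50 stayed within the range set for them. Of 336 alternative values of 48 named differences, 314 stayed on their side of 2, 12 dropped under it, 10 passed it and 0 changed sign. Depth limits low values most in hepatocyte-like cells, where 1 CPM stood for a median of 4.42 reads in cells 1 to 4. No paired analysis was possible because the labels give 1 group.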
